A study of Homo sapiens with 4 samples.

Results

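The human mitochondrial genome encodes 13 proteins, all of them membrane subunits of the respiratory chain or of ATP synthase. The 10 genes described here were chosen by name: MT-ND1, MT-ND2, MT-ND4, MT-ND5 and MT-ND6 (complex I), MT-CYB (complex III), MT-CO1, MT-CO2 and MT-CO3 (complex IV) and MT-ATP6 (complex V). All 10 were found among the 19192 genes counted in every library. MT-ND3, MT-ND4L and MT-ATP8 complete the set of 13 and are given beside their neighbours.

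The cells derive from SW480, a long-established line from a human colorectal adenocarcinoma. The first derivative carries the label of LIN28B overexpression (OE); LIN28B is an RNA-binding protein that keeps let-7 microRNAs from maturing. The second shares the LIN28B overexpression and is also labelled as a knockout of IMP1, an RNA-binding protein whose gene symbol is IGF2BP1. Each line gave 1 library of ribosome-protected fragments (footprints, 18 to 34 nt) and 1 of fragmented total RNA (18 to 50 nt), each from 3 pooled culture plates. Whether either line is a single clone is not given in the sources used here. With 1 library per line and assay there was no replicate and no test between the lines, and every 95% interval below covers counting error only. Each ratio divides the knockout-labelled by the OE-labelled value.

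Library totals were between 2732760 and 6813372 counts. IGF2BP1, the gene of IMP1, was higher under the knockout label: it had 840 counts in the OE-labelled and 1974 in the knockout-labelled RNA library (log2 ratio 0.79), and 332 and 821 footprints (1.03). LIN28B, labelled as overexpressed in both lines, was lower in the knockout-labelled line (1205 against 303 RNA counts, log2 ratio -2.43). The groups are therefore named by their labels, and no direction below is a measured loss of IMP1. Of 8 colorectal epithelial markers, KRT20 alone had no count, and the summed level of the 8 in RNA was 10026 CPM (counts scaled to the library total) under the OE label and 5160 under the knockout label. The 16 markers of blood, fibroblast, endothelial, muscle and neural cells summed to 33.3 and 50.9 CPM, with PTPRC, COL1A2 and DCN at 0. Most of this came from the 2 muscle markers DES and MYH11, which together had 23.8 and 32.9 CPM. DES had 101 and 156 RNA counts and MYH11 28 and 68. Single markers went against these sums or stood out in them: KRT8 and KRT18, the most abundant epithelial markers, went from 3372 CPM under the OE label to 1573 and from 5676 to 2868, whereas CDH1 went from 44.8 to 90.1. COL1A1, a fibroblast marker, had 2 and 55 RNA counts and 0 and 57 footprints under the OE and knockout labels. The part of these differences in the results below was not tested.

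Mitochondrial DNA is transcribed from both strands into long precursors, which are cut into single mRNAs largely at the tRNAs that lie between the genes. These mRNAs carry almost no untranslated leader, and they are translated inside the organelle by dedicated ribosomes with their own rRNAs, factors and genetic code. Each product is inserted into the inner membrane and assembled with subunits that are encoded in the nucleus, translated in the cytosol and imported.

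The first 30 bases of 9 of the coding sequences are shown because they show the start codons in use and how MT-ND6 stands apart in base composition. Sequences are the GENCODE release 29 transcripts (GRCh38) listed in the files, 5′ to 3′, with the first codon in capitals. MT-ND6 lies on the minus strand and the other genes on the plus strand.
MT-ND1 (chrM:3307-3336): ATAcccatggccaacctcctactcctcatt
MT-ND2 (chrM:4470-4499): ATTaatcccctggcccaacccgtcatctac
MT-CO1 (chrM:5904-5933): ATGttcgccgaccgttgactattctctaca
MT-CO2 (chrM:7586-7615): ATGgcacatgcagcgcaagtaggtctacaa
MT-ATP6 (chrM:8527-8556): ATGaacgaaaatctgttcgcttcattcatt
MT-CO3 (chrM:9207-9236): ATGacccaccaatcacatgcctatcatata
MT-ND4 (chrM:10760-10789): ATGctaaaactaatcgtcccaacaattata
MT-ND5 (chrM:12337-12366): ATAaccatgcacactactataaccacccta
MT-ND6 (chrM:14644-14673): ATGatgtatgctttgtttctgttgagtgtg

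Of the 10 genes, 7 began with ATG, 2 with ATA and 1, MT-ND2, with ATT; in mitochondria these also serve as start codons. Of the ends, 5 were an incomplete stop codon, T or TA, which polyadenylation completes. MT-CO1 ended in AGA and MT-ND6 in AGG, and 3 ended in TAA or TAG. TGA, a stop in the cytosol and tryptophan in mitochondria, stood inside the reading frame of all 10, between 3 and 16 times, and as early as codon 6 in MT-CO1. The 9 plus-strand genes held 9.50 to 16.2% G and 30 to 36% C, whereas MT-ND6 held 35.6% G and 7.05% C.

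Some reads of these genes cannot be given to 1 gene. MT-ATP8 and MT-ATP6 share an mRNA and overlap by 46 bases in different frames, and MT-ND4L and MT-ND4 likewise by 7. Both overlaps are shown in capitals with 8 bases on each side, since the counts of these neighbours are compared below.
MT-ATP8 and MT-ATP6 (chrM:8519-8580): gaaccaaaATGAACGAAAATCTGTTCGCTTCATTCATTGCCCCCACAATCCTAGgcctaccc
MT-ND4L and MT-ND4 (chrM:10752-10774): ctactccaATGCTAAaactaatc

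Nuclear chromosomes also hold copies of mitochondrial DNA. Of the 30-base windows of each gene, the share found unchanged in another annotated GENCODE transcript was 67.9% for MT-CO1, 63.8% for MT-ATP6, 58.0% for MT-ND2, 51.6% for MT-CO2, 45.8% for MT-CO3, 31.7% for MT-ND6, 28.7% for MT-ND1, 22.9% for MT-ND4, 16.2% for MT-ND5 and 5.40% for MT-CYB. The copies covering most windows of MT-CO1, MT-ATP6 and MT-ND2 were the pseudogenes MTCO1P12, MTATP6P1 and MTND2P28, 98.7%, 98.5% and 98.4% identical over their aligned bases. A stretch of 60 bases shows how little separates a gene from its copy; the base that differs is in capitals.
MT-ATP6 (chrM:8827-8886): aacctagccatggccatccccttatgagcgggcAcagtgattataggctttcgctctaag
MTATP6P1: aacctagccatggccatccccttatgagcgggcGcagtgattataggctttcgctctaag

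How reads with several matches were counted is not given in the sources used here, nor whether strand was used, so MT-ND6 reads cannot be told apart from reads of the opposite strand. Levels of these genes, MT-CO1, MT-ATP6 and MT-ND2 above all, are uncertain by an amount that cannot be measured from the counts.

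The 10 genes made up 1.29% of counts in the OE-labelled RNA library (70216 counts; exact 95% binomial interval 1.28 to 1.30%) and 1.12% in the knockout-labelled RNA library (76513; 1.12 to 1.13%). In footprints they were far scarcer, at 0.0766% (2094 counts; 0.0734 to 0.0800%) and 0.106% (3471; 0.103 to 0.110%). The order of the lines thus differed by assay: the RNA share was lower and the footprint share higher in the knockout-labelled line. Footprint counts of single genes ran from 21 to 2040, so these carry most of the counting error.

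MT-CO1, the catalytic core of cytochrome c oxidase, held most of the signal. It had 44759 and 48579 RNA counts and 1192 and 2040 footprints in the OE-labelled and knockout-labelled line, which was 63.7% and 63.5% of the 10 genes' RNA counts and 56.9% and 58.8% of their footprints. MT-CO2, which carries the copper site that receives electrons from cytochrome c, was the next most abundant and took a larger part of footprints (18.6% and 19.4%) than of RNA (8.61% and 9.59%). The other 8 genes each held at most 6.99% of the 10 genes' counts in each library.

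**Figure D1:**
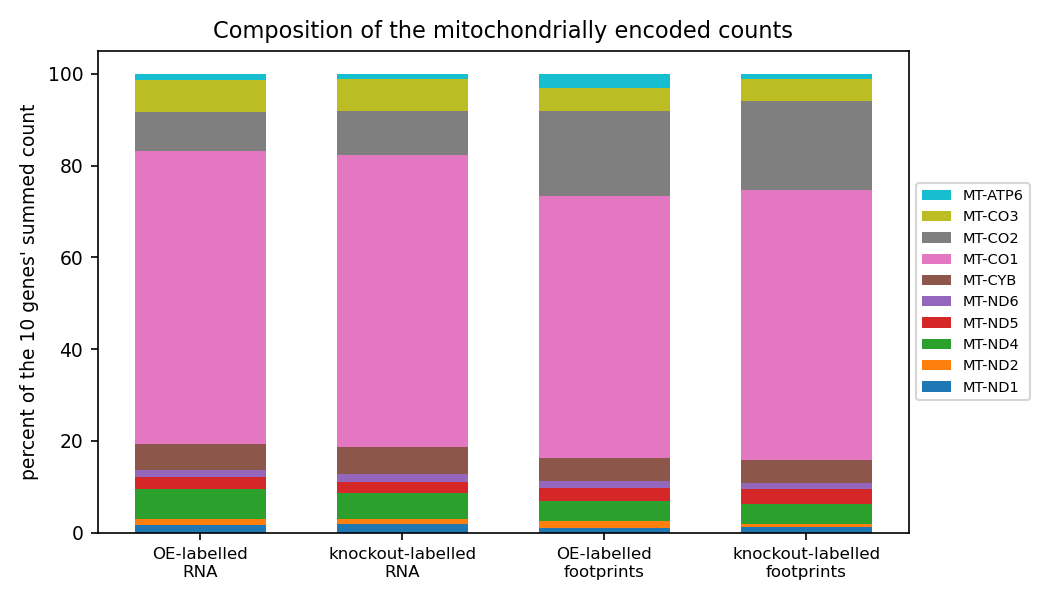
Share of the 10 genes' summed count (percent) held by each gene in the 4 libraries, as stacked bars with no error bars. MT-CO1 fills 63.7% and 63.5% of the RNA bars and 56.9% and 58.8% of the footprint bars, and MT-CO2 is wider in footprints than in RNA.

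Per kb of coding length, RNA levels differed widely between the genes. In the OE-labelled RNA library MT-CO1 stood at 5346 CPM per kb, MT-CO2 at 1635, MT-CO3 at 1145, MT-CYB at 649, MT-ND4 at 614, MT-ND6 at 368, MT-ATP6 at 260, MT-ND1 at 239, MT-ND5 at 178 and MT-ND2 at 163. Neighbours whose intervals overlapped were MT-CYB with MT-ND4, MT-ATP6 with MT-ND1, and MT-ND5 with MT-ND2. In the knockout-labelled RNA library the order was 4624, 1582, 1001, 586 and 464 CPM per kb for the first 5 and 367 for MT-ND6, with MT-ND1 at 222 above MT-ATP6 at 189, MT-ND5 at 156 and MT-ND2 at 111, and no neighbouring intervals overlapped. The counts per kb were therefore not equal although 9 of the genes come from 1 strand. The part of shared sequence and of the unknown handling of multiple matches in this order was not tested.

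In footprints MT-CO1 and MT-CO2 also led, at 283 and 209 CPM per kb in the OE-labelled and 406 and 303 in the knockout-labelled library. MT-CO3 followed at 49.5 and 66.5. The lowest in the OE-labelled library was MT-ND1, at 8.80, and in the knockout-labelled library MT-ND2, at 6.18. MT-ATP6 ranked with MT-CYB at 34.5 in the OE-labelled library and lay at 17.6 in the other.

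**Figure D2:**
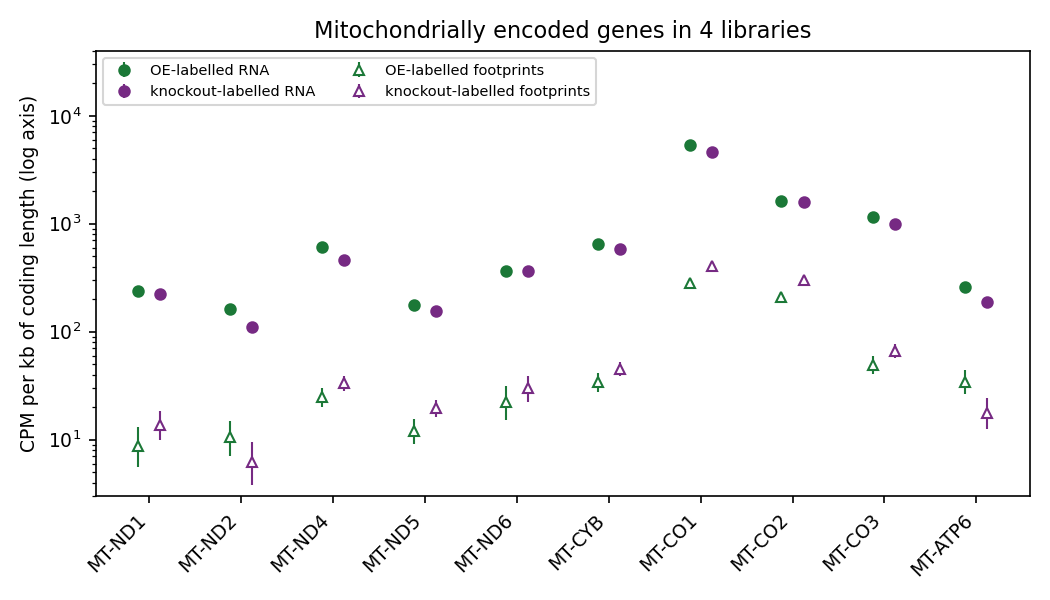
Level of each gene in CPM per kb of coding length (log axis) in the 4 libraries; bars are exact 95% binomial intervals and cover counting error only. Footprints (triangles) lie below RNA (circles) for every gene and line, and the knockout-labelled footprints lie above the OE-labelled ones for 8 genes, MT-ND2 and MT-ATP6 being the exceptions.

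RNA of all 10 genes was lower in the knockout-labelled library, by modest amounts. Summed, the log2 ratio was -0.32 (-0.34 to -0.31), or 1.25-fold lower, and the median of the 10 was -0.31 with a range from -0.68 to -0.12. Each of the 10 intervals lay below 0, that of MT-ND6 by the smallest margin. The share of all genes with an RNA interval below 0 is not given here. Over all 9855 genes measured, which had a mean of at least 50 RNA counts, the median was 0.01 and 48.9% were below 0. One (1) of the 10 genes, MT-ND2, was at least 1.5-fold lower, against 10.5% of all genes, and 0 were at least 1.5-fold higher, against 10.5%. In such bulk RNA, fewer cells carrying a transcript and less of it per cell cannot be told apart. These ratios use TMM scaling, which equalises the bulk of genes between 2 libraries. With scaling to total counts the median of all genes moved from 0.01 to 0.13 and that of the 10 genes from -0.31 to -0.19; the 10 kept their sign, MT-ND6 barely, at -0.0042, the intervals of MT-ND6, MT-CO2 (-0.05) and MT-ND1 (-0.10) then held 0, and no gene was 1.5-fold lower.

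In complex I, the proton-pumping NADH dehydrogenase, the 5 core membrane subunits differed among themselves. MT-ND2 had 924 and 786 RNA counts in the OE-labelled and knockout-labelled line (log2 ratio -0.68, -0.82 to -0.54) and MT-ND4 had 4595 and 4355 (-0.52, -0.58 to -0.46). MT-ND5 had 1752 and 1922 (-0.31), MT-ND1 1240 and 1448 (-0.22) and MT-ND6, the product of the other strand, 1050 and 1314 (-0.12, -0.24 to -0.0028). MT-ND2 and MT-ND4 were thus lowest of the 5 and MT-ND6 nearest to no difference.

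Of the subunits of complex IV, which reduces oxygen, MT-CO1 had a log2 RNA ratio of -0.33 and MT-CO3, with 4873 and 5347 counts, one of -0.31. MT-CO2 lay nearer to 0, at -0.16 (6044 and 7339 counts; -0.21 to -0.12). MT-CYB, the cytochrome b of complex III and its 1 mitochondrially encoded subunit, had 4022 and 4552 counts (-0.27). MT-ATP6, a subunit of the proton channel of ATP synthase, had 957 and 871 (-0.58, -0.71 to -0.45), the second lowest of the 10 and just short of 1.5-fold.

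Set against the other 9 genes summed, a comparison that needs no library scaling, MT-ND2 was lower in RNA by a log2 value of -0.36 (-0.50 to -0.22), MT-ATP6 by -0.26 (-0.40 to -0.13) and MT-ND4 by -0.21 (-0.28 to -0.15). MT-ND6 was higher, at 0.20 (0.08 to 0.32), and MT-CO2 at 0.17 (0.12 to 0.22). For the other 5 the interval held 0. The counts assigned to these genes therefore did not all differ by the same factor between these libraries. MT-ND4L and MT-ND4, which share an mRNA, also had unlike RNA ratios (0.21, 0.03 to 0.39, and -0.52, -0.58 to -0.46). Such differences between genes need not be differences between mRNAs.

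Footprints went the other way for most of the genes. Summed, the footprint log2 ratio was 0.45 (0.37 to 0.53), or 1.37-fold higher in the knockout-labelled library, and 8 of the 10 genes were above 0. The interval lay above 0 for 6 of them, below 0 for MT-ATP6 and across 0 for MT-ND1, MT-ND2 and MT-ND6. The share of all genes whose footprint interval excludes 0 is not given here, so these counts have no background. MT-ND1, MT-ND2 and MT-ND6 had a mean below 50 footprints and did not pass the filter on low counts. Of the 7 that passed, 6 were above 0, against 3775 of all 7323 genes measured. MT-ND5 was at least 1.5-fold higher, against 15.0% of all genes measured, and MT-ATP6 at least 1.5-fold lower, against 14.1%. With 1 gene of 7 past 1.5-fold in each direction, both shares are near the background.

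MT-CO1 footprints had a log2 ratio of 0.50 (0.40 to 0.60) and MT-CO2, with 389 and 673 footprints, one of 0.51 (0.33 to 0.70). MT-CO3 had 106 and 170 (0.40, 0.05 to 0.77) and MT-CYB 106 and 169 (0.39, 0.04 to 0.76). MT-ND4 had 93 and 150 (0.41, 0.03 to 0.80). MT-ND5 had 59 and 115 (0.68, 0.22 to 1.16). These 6 intervals overlap, and the genes cannot be ranked by their footprint ratio.

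MT-ND1 had 23 and 43 footprints (0.61, -0.14 to 1.42) and MT-ND6 32 and 51 (0.39, -0.27 to 1.08), so a difference between the lines was not detectable at this depth. MT-ND2 had 30 and 21 (-0.78, -1.67 to 0.06). MT-ATP6 had 64 and 39 (-0.98, -1.60 to -0.39), 1.98-fold lower. Against the other 9 genes summed, footprints of MT-ATP6 were lower by a log2 value of -1.46 (-2.04 to -0.89) and those of MT-ND2 by -1.25 (-2.05 to -0.45), and the intervals of the other 8 held 0. MT-ATP6 and MT-ND2 were also the lowest in RNA, and both have many windows in common with nuclear pseudogenes, as does MT-CO1, whose footprints were higher. The part of shared sequence in these values was not tested.

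**Figure D3:**
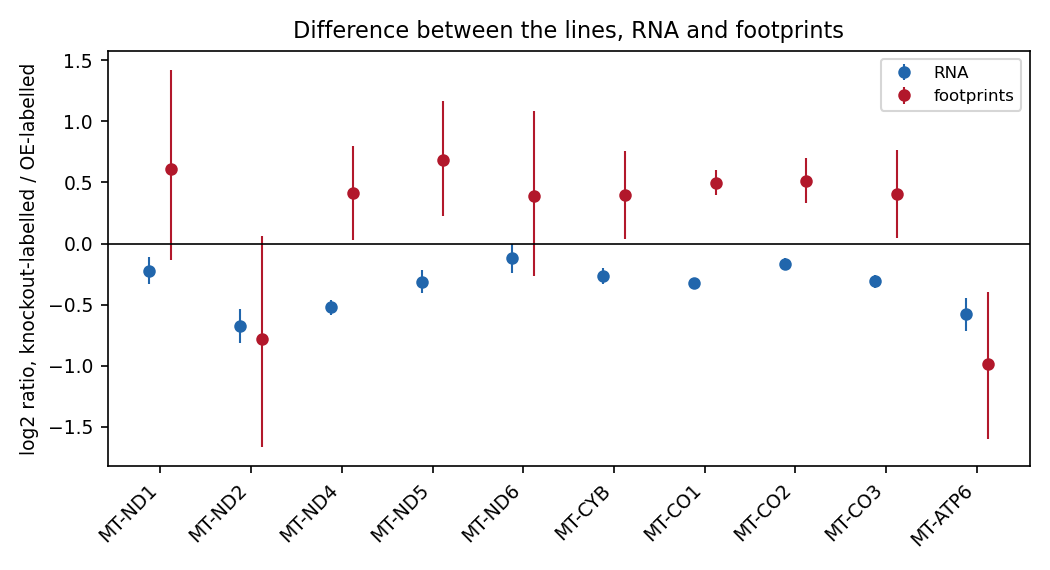
Log2 ratio between the lines (knockout label over OE label) for each gene in RNA and in footprints, with exact conditional 95% intervals for counting error. All 10 RNA points lie below 0; 8 footprint points lie above 0, and MT-ND2 (-0.78) and MT-ATP6 (-0.98) lie below.

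The footprint ratio over the RNA ratio, called translational efficiency in profiling of cytosolic ribosomes, summed to a log2 value of 0.77 (0.69 to 0.85), 1.71-fold higher in the knockout-labelled line. Of the 7 genes measured in both assays, 6 were past 1.5-fold in the higher direction, against 13.4% of 7260 genes, and 0 in the lower, against 12.9%. The values were 0.99 for MT-ND5, 0.93 for MT-ND4, 0.83 for MT-CO1, 0.71 for MT-CO3, 0.68 for MT-CO2 and 0.66 for MT-CYB. MT-ATP6 stood at -0.40 (-0.99 to 0.18). The median of the 7 was 0.71, beside -0.0048 for all genes. MT-ND1 (0.83, 0.10 to 1.57), MT-ND6 (0.51, -0.14 to 1.15) and MT-ND2 (-0.10, -0.91 to 0.71) did not pass the footprint filter. With scaling to total counts, 4 of the 7 were past 1.5-fold, the summed value was 0.68, and the median of all genes moved to -0.10. RNA is the divisor of this ratio, and its spread between cultures is unknown without replicates.

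The scarcity of the 10 genes in footprints was larger than any of their differences between the lines. A gene's share of footprint counts was divided by its share of RNA counts in the same line. Summed, the footprint share was 16.9-fold below the RNA share in the OE-labelled line (log2 value -4.08, -4.14 to -4.01) and 10.5-fold below in the knockout-labelled line (-3.40, -3.45 to -3.35). All 10 genes were at least 2-fold below in both lines, against 24.0% and 26.5% of 9855 genes. These genes passed a filter on RNA counts only, which favours genes that are high in RNA. Among the 7260 genes that also had a mean of at least 50 footprints, the shares were 12.6% and 14.8%, and the 7 of the 10 that passed were all at least 2-fold below, with medians of -4.24 and -3.51 beside 0.26 and 0.19 for all 7260. The median of the 10 was -4.13 and -3.65, beside -0.06 and -0.15 for all genes.

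MT-CO2 and MT-ATP6 were the least depleted in the OE-labelled line, at 7.81-fold and 7.47-fold below, and MT-ND1 the most, at 26.6-fold. In the knockout-labelled line the range ran from 5.21-fold for MT-CO2 to 17.5-fold for MT-ND2. MT-CO1 lay at 18.9-fold and 11.4-fold. Of all genes measured, 1.33% in the OE-labelled line and 2.59% in the knockout-labelled line had a lower value than MT-CO1. Low values were thus not confined to mitochondrial genes.

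Relative to the other 9 summed, MT-CO2 was higher in footprints over RNA in both lines, by a log2 value of 1.28 (1.11 to 1.44) and 1.18 (1.06 to 1.31). MT-CO3 was lower in both (-0.48, -0.76 to -0.19, and -0.54, -0.77 to -0.32), as were MT-CO1 (-0.41 and -0.29), MT-ND1 (-0.66 and -0.60) and MT-ND4 (-0.58 and -0.41), with intervals below 0. For MT-CO1 the other 9 held 902 and 1431 footprints, of which MT-CO2 alone gave 389 and 673. MT-CO1's own footprint over RNA value (-4.24 and -3.51) lay near the median of the 10 (-4.13 and -3.65). MT-ATP6 was higher in the OE-labelled line (1.2, 0.83 to 1.57) and level with the others in the knockout-labelled line (-0.0017, -0.46 to 0.46). MT-CO2 and MT-CO1 join the same enzyme in equal number, and their footprint levels per kb lay closer (209 and 283 CPM per kb in the OE-labelled line) than their RNA levels (1635 and 5346). MT-CO3, the other mitochondrially encoded subunit of that enzyme, went the other way and was further below MT-CO1 in footprints (49.5 CPM per kb) than in RNA (1145). A link between footprint levels and the number of subunits in the enzyme was not tested.

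**Figure D4:**
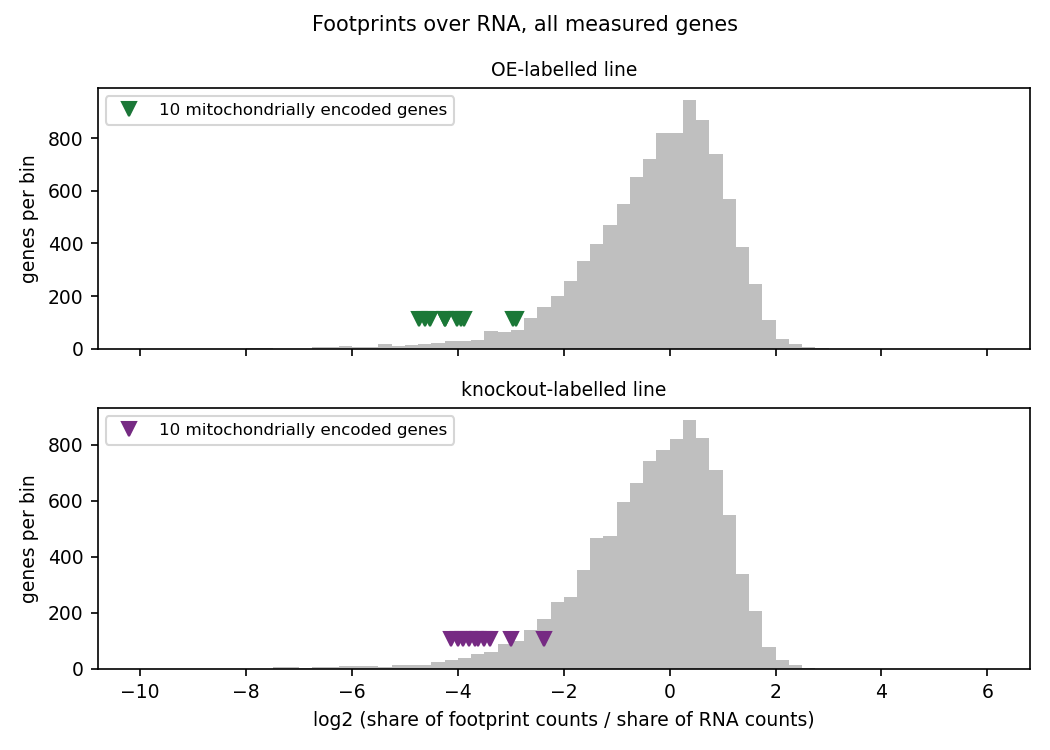
Number of genes per bin of 0.25 in the log2 ratio of footprint share to RNA share, for all 9855 genes measured (grey bars) in each line; triangles mark the 10 mitochondrially encoded genes at an arbitrary height. The 10 lie in the lower tail, around medians of -4.13 (OE-labelled) and -3.65 (knockout-labelled).

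Ribosomes of mitochondria protect fragments of other lengths than cytosolic ones, and preparation steps set up for cytosolic ribosomes need not recover them. How well they were captured was not tested, nor how many of the fragments came from ribosomes, so a low footprint share is not a measure of low translation. The same holds for the difference between the lines.

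The 2 overlapping gene pairs allow a comparison within 1 mRNA. MT-ATP8, a small subunit of ATP synthase, had 268 and 211 RNA counts in the OE-labelled and knockout-labelled line and 49 and 56 footprints. Per kb its RNA was near that of MT-ATP6 in the OE-labelled line (242 against 260 CPM per kb) and somewhat lower in the other (152 against 189), whereas its footprints were higher (87.9 against 34.5, and 84.2 against 17.6 CPM per kb). MT-ATP8 was the least depleted of the 13, at 2.73-fold and 1.79-fold below its RNA share. Between the lines, MT-ATP8 footprints had a log2 ratio of -0.09 (-0.66 to 0.50), beside -0.98 (-1.60 to -0.39) for MT-ATP6. These intervals overlap in part, which does not show that the ratios were equal, and their difference was not tested. Taken as 1 unit, the pair had 113 and 95 footprints (-0.53, -0.94 to -0.12) and 1225 and 1082 RNA counts (-0.62, -0.74 to -0.50).

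The other pair looked different. MT-ND4L had 417 and 658 RNA counts (log2 ratio 0.21, 0.03 to 0.39), the 1 mitochondrial gene of 13 with an RNA ratio above 0, while MT-ND4 on the same mRNA stood at -0.52. MT-ND4L footprints were few, at 5 and 16. As 1 unit, MT-ND4L and MT-ND4 had 5012 and 5013 RNA counts (-0.44) and 98 and 166 footprints (0.48, 0.12 to 0.86). MT-ND3, a further complex I subunit, had 179 and 184 RNA counts (-0.41) and 4 and 9 footprints, too few to tell the lines apart.

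Nuclear-encoded subunits of the same complexes had medians near 0 between the lines and were not scarce in footprints. All 76 listed subunits of complexes I, III, IV and V were measured in both assays. Their median log2 ratio was -0.07 in RNA (1 at least 1.5-fold higher, 6 lower) and -0.04 in footprints (4 higher, 7 lower), and 0.0071 in translational efficiency (7 higher, 6 lower). Of all genes, 10.5% each way in RNA, 15.0% and 14.1% in footprints and 13.4% and 12.9% in efficiency were past 1.5-fold. Their footprint share was above their RNA share, with a median log2 value of 1.03 in the OE-labelled and 0.84 in the knockout-labelled line. No nuclear subunit lay as low as any of the 10 mitochondrial ones in its line. The lowest was ATP5G3, which encodes the membrane ring of ATP synthase, at -2.44 and -1.74. MT-ATP8, which is not among the 10, lay above ATP5G3, at -1.45 and -0.84.

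By complex, the RNA medians were 0.02 for 37 subunits of complex I, -0.14 for 9 of complex III, -0.10 for 12 of complex IV and -0.10 for 18 of complex V. The footprint medians were -0.11, -0.05, 0.07 and 0.0011 in the same order. In complex I NDUFV1 and NDUFS1, which carry electrons from NADH, had RNA ratios of -0.08 and 0.16 and footprint ratios of -0.13 and 0.20. In complex IV COX4I1, a core-binding regulatory subunit, stood at -0.08 and 0.26, and in complex V the catalytic ATP5B at 0.06 and 0.04. Complex II, which has no mitochondrially encoded subunit, had medians of 0.04 and -0.30 over 4 genes.

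**Figure D5:**
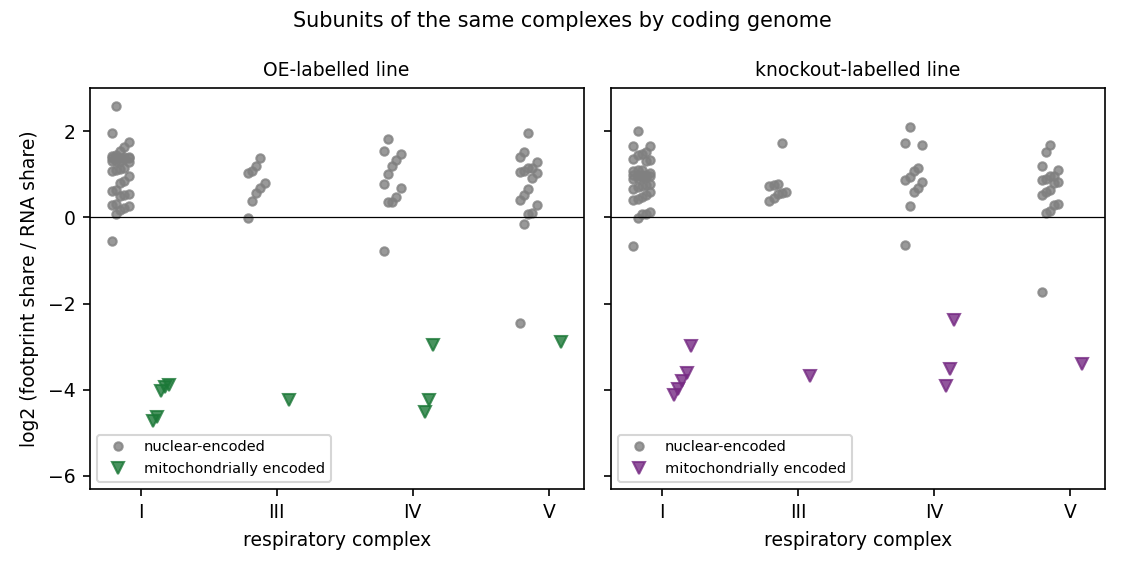
Log2 ratio of footprint share to RNA share for nuclear-encoded (circles) and mitochondrially encoded (triangles) subunits of complexes I, III, IV and V in each line; each symbol is 1 gene, with no error bars. In each complex and line the triangles lie below the circles; the lowest circle is ATP5G3 in complex V, at -2.44 and -1.74.

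Lists of nuclear genes that express and maintain the mitochondrial genome are given by counts past 1.5-fold, to be read against 10.5% of all genes each way in RNA and 15.0% higher and 14.1% lower in footprints. Of 22 measured genes of mitochondrial transcription and RNA processing, 3 were at least 1.5-fold higher in RNA and 1 lower (median 0.09); LRPPRC and SLIRP, which together stabilise mitochondrial mRNAs, stood at -0.07 and 0.43, and FASTKD5, a factor of mitochondrial RNA processing, at 1.13 (76 and 227 counts). In footprints 4 of 20 were higher and 1 lower. Of 31 proteins of the small and 50 of the large mitochondrial ribosomal subunit, 3 and 2 were higher and 1 and 3 lower in RNA, with medians of -0.02 and 0.0074, and the footprint medians were -0.15 (6 higher, 5 lower) and 0.14 (6 higher, 2 lower). Among 17 mitochondrial translation factors the RNA median was -0.06 (1 higher, 3 lower), with the elongation factor TUFM at -0.06 and the initiation factor MTIF3 at -1.44 (102 against 51 counts); of the 13 measured in footprints 2 were higher and 2 lower. Genes of mitochondrial DNA maintenance had an RNA median of -0.05 (12 measured, 0 higher, 1 lower) and a footprint median of 0.33 (9 measured, 3 higher, 1 lower). Assembly factors of complexes I and IV had medians of 0.15 in RNA (34 measured, 2 higher, 1 lower) and 0.09 in footprints (27 measured, 7 higher, 3 lower). Chaperones and proteases of mitochondria had -0.06 in RNA (14 measured, 0 higher, 0 lower) and -0.16 in footprints (14 measured, 2 higher, 0 lower). Regulators of mitochondrial biogenesis had 0.11 in RNA (5 measured, 1 higher, 0 lower) and -0.24 in footprints (4 measured, 0 higher, 1 lower).

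Counts assigned to MTRNR2L genes were high. These are nuclear copies of part of the mitochondrial 16S rRNA gene, and reads of that rRNA cannot be separated from them with certainty. The 11 found made up 12% of the OE-labelled and 8.54% of the knockout-labelled RNA counts, and 2.91% and 2.13% of footprints. Their median log2 ratio was -0.58 in RNA (11 measured, 5 at least 1.5-fold lower, against 10.5% of all genes) and -0.11 in footprints (9 measured, 1 lower). Their median footprint over RNA value was -3.05 and -3.27, with ranges from -6.12 to -0.62 and from -5.81 to -0.92. The least depleted, MTRNR2L12, had 47926 and 33374 of their 79476 and 69456 footprints. None of the 9 was at least 1.5-fold higher in footprints. In translational efficiency their median was 0.47, beside 0.71 for the 7 mitochondrially encoded genes measured, with 3 of 9 at least 1.5-fold higher and 0 lower, against 13.4% and 12.9% of all genes. Leaving them out of the totals set the 10 genes at 1.47% and 1.23% of RNA counts and 0.0789% and 0.109% of footprints.

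Among 7252 nuclear genes with a mean of at least 50 counts in each assay, the 5 nearest to the summed 10 genes over the 4 libraries, by Euclidean distance of centred log2(CPM + 1) values, were PHKG2 (distance 0.30), WDR31 (0.46), IRAK1 (0.47), MTRNR2L8 (0.50) and ZNF664 (0.50). PHKG2, a subunit of phosphorylase kinase, had 1961 and 2842 RNA counts and 63 and 114 footprints. Its footprint over RNA value was -3.96 and -3.57. Its log2 RNA ratio was 0.09, and those of WDR31, IRAK1 and ZNF664 were 0.27, 0.09 and 0.05. These lay above 0, unlike that of the summed 10 genes (-0.32), whereas MTRNR2L8 stood at -0.58. These distances rest on 4 libraries and are a description only.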

How the data were processed

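Footprints and fragmented RNA of 2 SW480-derived lines were counted in 4 libraries. The authors deposited unnormalized counts for 19192 genes, naming 1 transcript beside every gene. The build GRCh38 and the tools HISAT2 2.1.0, Bowtie 1.1.2 and cutadapt 1.10 come from the submitters' processing notes, with no role or order named. Not given in the sources used here are the counter, annotation, counted region, strand, handling of multiple matches and use of the random identifiers (4 and 5 nt). Counting error is understated if copies from the 15 PCR cycles were counted. SW840 stands in the cell line field of 1 library, whose source field has SW480, per the labels.

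TMM factors (edgeR 4.0.16, R 4.3.3) scaled the counts of each assay. Log2 ratios add 0.5 to each count and have exact conditional binomial (Clopper-Pearson) 95% intervals; translational efficiency, which was taken as the footprint minus the RNA log2 ratio, has a Wald interval from the 4 counts, as do comparisons with the other 9 genes. Footprints over RNA use shares of library totals. A gene was measured with a mean count of at least 50 in the assay, in both assays for translational efficiency, and in RNA only for footprints over RNA (both assays as an alternative added after seeing the data). No p-value was computed, because no group had a replicate. Thresholds were 1.5-fold, and 2-fold for footprints over RNA. The steps were tested on simulated data with counting error only.

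The 10 genes and 15 lists (292 genes, 284 found under a current or older symbol) were chosen with earlier results of these data known. The text names all 10 genes, IGF2BP1 and LIN28B, and the 5 nearest genes. The naming rule also takes, from each list, the 3 genes highest in RNA and the highest and lowest ratio per assay; only some of those are named. Coordinates, coding lengths and sequences come from GENCODE release 29, whose transcripts matched the listed identifiers of all 13 genes. Shared sequence was counted over 30-base windows, both strands, in annotated transcripts outside mitochondrial DNA; copies that are not annotated were not searched. Alternatives used DESeq2 1.42.0 size factors, upper-quartile and total-count scaling, 5 added to each count, and minimums of 10, 200 or none. Python 3.11.15, numpy 2.4.6, pandas 2.3.3, scipy 1.17.1 and matplotlib 3.10.9 were used. The opening bases of MT-CYB are not reported here.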

Additional observations from a re-analysis of the deposited data

How the results depend on the processing

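No paired analysis was possible because each line gave 1 library per assay, and for the same reason no replicate could be left out. The direction of the summed RNA, footprint and translational efficiency ratios, and of footprints over RNA in both lines, was the same under every alternative run. The summed RNA log2 ratio was -0.20 with total counts, -0.21 with totals lacking mitochondrially encoded genes, -0.26 when 16S-like genes were left out too (an alternative chosen after seeing the data), and -0.34 with upper-quartile scaling. The efficiency ratio was 0.68 with total counts, with or without mitochondrially encoded genes. Without MT-CO1, footprints over RNA stood at -3.83 and -3.22 in the OE-labelled and knockout-labelled line. They stood at -4.24 and -3.51 without mitochondrially encoded and 16S-like genes in the totals, and at -3.28 (DESeq2) and -3.31 (TMM) in the knockout-labelled line. Of the 10 genes, 0 were 1.5-fold lower in RNA with total counts; at 2-fold and 1.2-fold the counts were 0 and 7. For the 7 genes measured in footprints, 0 were 2-fold lower, 0 were 2-fold higher and 6 were 1.2-fold higher. For efficiency (alternatives added after seeing the data), 0 were 2-fold higher. Among all genes, 344 of 9855 were 2-fold lower in RNA and 265 of 7260 were 2-fold higher in efficiency. In footprints 325 of 7323 were 2-fold lower and 341 higher. The shares of all genes at 1.2-fold are not given here, so the counts at that threshold have no background. Over all genes, 2074 were at least 1.5-fold different in RNA, against 3392, 792 and 6162 with minimums of 10, 200 and none; in footprints 2125, against 4117, 569 and 6445. Of 90 values for single genes, 8 moved past their counting interval, all in RNA, 7 with total counts and 1 with upper-quartile scaling, and none changed sign. The cause of these shifts was not tested. Depth limits MT-ND1, MT-ND2 and MT-ND6, each with at most 51 footprints per library.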
